A study of Mus musculus with 17 samples.

Results

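After retinoic acid followed by BMP4, FOXA2-positive cells derived from mouse embryonic stem cells were compared with FOXA2-negative cells of the same treatment. The libraries were chosen by their titles, which give treatment, number and sorted fraction: 3 of each fraction, 6 of the 17 libraries in the series. All groups came from the embryonic stem cell line R1 carrying FOXA2-Venus, a fluorescent reporter of FOXA2, and the labels name no clone number and no separate cultures. BMP4 cells had 18 hours of retinoic acid (RA), 6 hours without treatment and 8 hours of BMP4. For comparison, the RA groups received only the 18 hours of retinoic acid, and the LDN groups the BMP4 schedule with the agent labelled LDN in place of BMP4. RA held 3 libraries in each fraction, and LDN held 3 FOXA2-negative and 2 FOXA2-positive libraries. The labels give no later hours for RA, so treatment and time of collection cannot be told apart in comparisons with it.

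FOXA2 is a forkhead transcription factor that opens chromatin in endoderm, notochord and floor plate, the strip of cells along the ventral midline of the neural tube. The floor plate makes Sonic hedgehog, which patterns ventral neurons, while bone morphogenetic proteins such as BMP4 pattern the dorsal side and act through receptor kinases and SMAD proteins on targets such as the Id and Msx genes. The series concerns floor plate formation in neural tube organoids and the role of BMP in it. The comparison described here asks which genes separate the FOXA2-positive cells from their FOXA2-negative neighbours once BMP4 has been given.

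Gene counts per library ran from 8435845 to 10570828 (median 10016690), and 16797 to 17441 genes had at least 1 count. Mitochondrial genes took 3.50% to 4.81% of counts. In a principal component analysis of the 6 libraries, on a first component holding 38.4% of the variance, the FOXA2-negative libraries lay between -24.02 and -11.99 and the FOXA2-positive libraries between 14 and 19.5. CPM are counts scaled to the size of each library, with TMM scaling. FOXA2-negative library 3 lay alone on the second component (20.6%) at 25.2, against -12.9 to 4.20 for the other 5. Within a fraction, libraries correlated across genes at a Spearman coefficient of 0.923 to 0.945, and every pair differed by more than sampling noise, with a ratio of chi-square to degrees of freedom of 20.4 to 36.9. Differences also followed chromosomes. For genes with 20 CPM or more, the log2 fold change had a median of 0.35 on chromosome 6 (337 genes, 87.2% above 0) and -0.30 on chromosome 8 (403 genes, 84.9% below 0), against -0.04 to 0.06 on the other 17 autosomes and X. The Y-linked genes Ddx3y (-1.89), Eif2s3y (-2.45) and Uty (-1.97) were called lower, and the 5 Y-linked genes measured summed to 86.0 to 126.6 CPM in FOXA2-negative and 19.7 to 27.96 CPM in FOXA2-positive libraries. Ddx3y lost its call without FOXA2-negative library 2 or FOXA2-positive library 2 or 3 (adjusted p up to 0.0626), and Uty without any but FOXA2-positive library 1 (up to 0.194) and with BMP4 libraries alone (0.0938). The part of these chromosome differences in single results was not tested. Of the called genes described here, chromosome 6 carries Nanog, Ccnd2, Dennd5b, Tspan12, Tpi1, Ptn, Stra8 and Gdf3, and chromosome 8 carries Zfp42 and Nqo1. Genes described without a call are not in this list, and those that lie on these chromosomes share the same limit.

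The sorted gene, Foxa2 (ENSMUSG00000037025; mm10 chromosome 2, 148042877 to 148046969, minus strand), was measured at 1.75, 0.108 and 0.472 CPM in FOXA2-negative libraries 1, 2 and 3, and at 27.4, 22.6 and 27.5 CPM in the FOXA2-positive libraries. Every FOXA2-positive library lay above every FOXA2-negative library, as the sort requires. The log2 fold change was 5.07 ± 0.78 (SE; edgeR adjusted p = 0.0012). Other floor plate genes did not set the fractions apart by the test. Shh had 0 counts in both fractions, which allows up to 0.105 CPM in FOXA2-negative cells and 0.0985 CPM in the others (3 counts over the group, counting error only). Ferd3l also had 0 counts in both, and Nkx2-2 (2 counts in FOXA2-negative and 0 in FOXA2-positive cells) was left out by the filter on low counts. Foxa1, the closest paralogue of Foxa2, stood at 3.61, 0.538 and 0.377 CPM in FOXA2-negative and 13.04, 9.22 and 3.88 CPM in FOXA2-positive libraries. Its fractions did not overlap, and its log2 fold change of 2.54 ± 1.11 missed the threshold (adjusted p = 0.413). Nkx2-9, a ventral homeobox gene, spread widely in the FOXA2-positive libraries (12.7, 45.4 and 49.0 CPM, against 13.3 to 24.5 CPM; 0.80 ± 0.58, adjusted p = 0.67). Ntn1 and Spon1, which encode the floor plate proteins netrin 1 and F-spondin, overlapped between fractions at under 5 CPM. Of the 14 genes on the floor plate list, 10 were tested, 9 had log2 fold changes above 0 and only Foxa2, through which the cells were sorted, was called. Nkx6-1, a ventral progenitor gene, had counts in FOXA2-positive library 2 alone (4.61 CPM). The list summed to 116.1 to 212.1 CPM in FOXA2-negative and 170.7 to 214.1 CPM in FOXA2-positive libraries, which overlap, most of it from the sulfatase genes Sulf1 and Sulf2, which also overlap.

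Of 17813 genes tested, 164 (0.921%) differed between the fractions at an adjusted p under 0.05 from edgeR's quasi-likelihood test. Of these, 57 (0.32%) were higher and 107 (0.601%) lower in FOXA2-positive cells. These shares, with 48.7% of log2 fold changes above 0 and 50% below, are the background for the counts of every gene list described here. In bulk libraries, fewer cells of a kind and less RNA per cell cannot be told apart. Chromosome 6 carried 12 of the 57 and 6 of the 107 (933 genes tested), and chromosome 8 carried 0 of the 57 and 15 of the 107 (960 tested). Of the 57, 34 exceeded 2-fold, a log2 fold change above 1, and 89 of the 107 fell by more than 2-fold. None of the 164 overlapped between the fractions, against 2641 (14.8%) of all tested genes without overlap. The median log2 fold change over all tested genes was -1e-04. Leaving out FOXA2-negative library 2 brought the count to 61. It was 82 without either of FOXA2-positive libraries 1 and 2, and 91 without the third. It was 133 without FOXA2-negative library 1 and 165 without library 3, which lay alone on the second component. Without the genes of chromosomes 6, 8 and Y it was 123, all of them among the 164. With them left out, 5 genes of other chromosomes (Chchd5, Ech1, Gm24451, Grb10 and Xlr3a) missed the threshold (adjusted p 0.0511 to 0.0545). The remaining genes kept their counts and scaling in this fit, so only the shared spread and the adjustment could move. It therefore cannot show how the chromosome differences bear on genes elsewhere. Below, a gene is said to have kept its call where it stayed under the threshold with each of the 6 libraries left out in turn, with RLE scaling, DESeq2, no filter or a stricter filter, the replicate block, and a fit of the BMP4 libraries alone. Of the 27 named genes that did, Ccnd2, Dennd5b, Eif2s3y, Nqo1 and Zfp42 lie on the 3 chromosomes and could not be tested without them, and the other 22 stayed called. Some of the 27 were chosen after their values were seen.

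**Figure D1:**
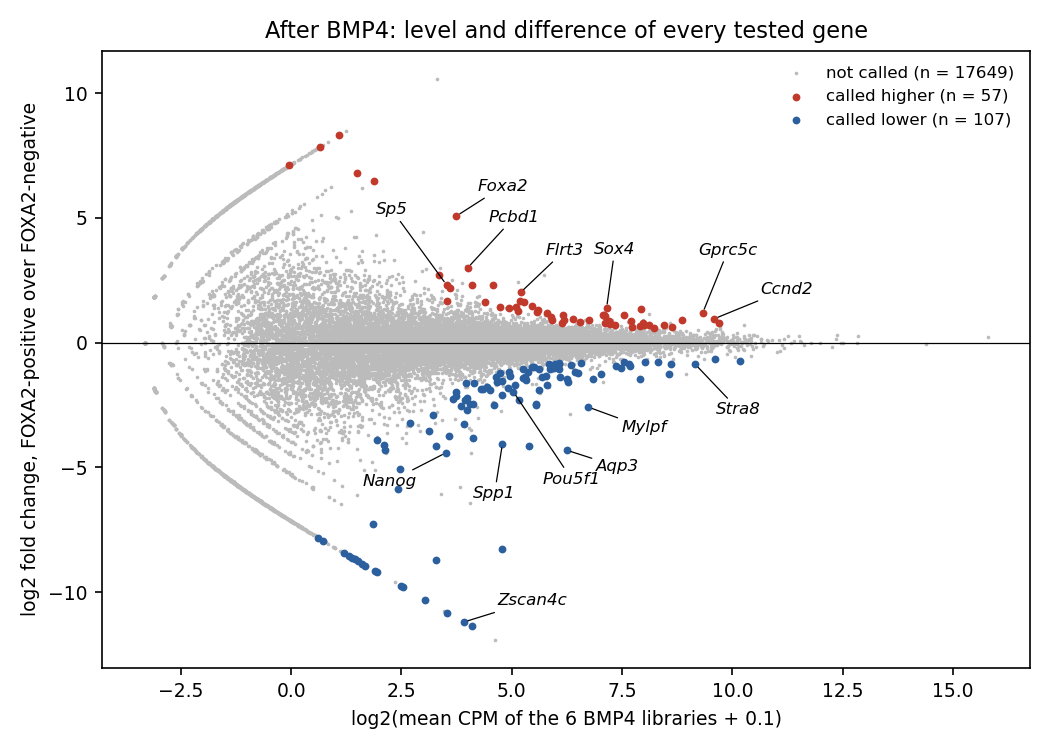
Each point is 1 of the 17813 tested genes, placed by the log2 of its mean CPM over the 6 BMP4 libraries plus 0.1 (horizontal axis) and by its log2 fold change, FOXA2-positive over FOXA2-negative (vertical axis). The 57 genes called higher are red and the 107 called lower blue, Zscan4c lies near the bottom with 0 counts in all FOXA2-positive libraries, and the curved lines of points at the left are genes with few or no counts in 1 fraction.

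Among the genes that were higher in FOXA2-positive cells, Pcbd1, Sox4, Gprc5c, Flrt3, Sp5, Lpar6, Dennd5b, Ccnd2, Gpc3 and Soat1 kept their calls. Pcbd1 (ENSMUSG00000020098, chromosome 10, 61089331 to 61094324, plus strand) encodes an enzyme that recycles tetrahydrobiopterin and also acts as a transcriptional cofactor. It stood at 4.07, 5.16 and 1.41 CPM in FOXA2-negative and 30.5, 26.1 and 28.3 CPM in FOXA2-positive libraries. The rise of 3.0 ± 0.44 on the log2 scale (adjusted p = 0.000671) was, after Foxa2, the largest positive one among called, fully named genes of at least 5 CPM. Flrt3, a transmembrane protein of cell adhesion and FGF signalling, was at 18.6, 12.5 and 12.6 CPM in FOXA2-negative and at 59.4, 60.0 and 57.3 CPM in FOXA2-positive libraries (2.02 ± 0.31, adjusted p = 0.00075). The 3 FOXA2-positive libraries lay within 3 CPM of each other for this gene. Sox4, a SoxC factor of progenitors and young neurons, rose from 76.3, 91.7 and 67.5 CPM to 189.9, 214.3 and 211.4 CPM (1.39 ± 0.18, adjusted p = 0.000256).

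Signalling receptors and cell cycle genes were among the abundant genes that rose. Gprc5c, an orphan receptor of the retinoic acid-induced family, stood at 492.8, 344.5 and 337.9 CPM in FOXA2-negative and 953.8, 969.4 and 756.2 CPM in FOXA2-positive libraries (1.19 ± 0.16, adjusted p = 0.00026). Ccnd2, which encodes cyclin D2, was at 559.3, 486.5 and 524.8 CPM against 1102, 1010.4 and 931.7 CPM (0.95 ± 0.16, adjusted p = 0.00244). Both genes thus roughly doubled from high levels, without overlap between the fractions, which holds for every called gene. Lpar6, a receptor of lysophosphatidic acid, rose from 17.5 ± 4.36 to 55.3 ± 7.15 CPM (SD, n = 3 each; 1.66 ± 0.26) and Gpc3, the cell surface proteoglycan glypican 3, from 137.8 ± 18.5 to 353.4 ± 67.0 CPM (1.36 ± 0.24). Soat1, which esterifies cholesterol, rose from 117.0 ± 18.99 to 254.6 ± 17.8 CPM (1.12 ± 0.20), and Dennd5b, a DENN-domain protein of membrane traffic, from 23.1 ± 4.75 to 64.4 ± 12.3 CPM (1.48 ± 0.22). The adjusted p of these 4 lay between 0.00075 and 0.00385.

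Sp5, a zinc finger gene switched on by Wnt and beta-catenin, stood at 5.35, 2.47 and 3.68 CPM in FOXA2-negative and 14.9, 25.5 and 16.6 CPM in FOXA2-positive libraries (2.31 ± 0.39, adjusted p = 0.00212). Its call was lost in a fit of the BMP4 libraries alone with the replicate block (adjusted p = 0.0709). Sp5 was the 1 called gene of the Wnt target list, and its promoter is shown because the TCF/LEF factors of this pathway bind the letters CTTTGAT. The 250 bases before its start in RefSeq (GRCm38.p6, chr2:70474673-70474922, plus strand) hold them once, in capitals.
Sp5: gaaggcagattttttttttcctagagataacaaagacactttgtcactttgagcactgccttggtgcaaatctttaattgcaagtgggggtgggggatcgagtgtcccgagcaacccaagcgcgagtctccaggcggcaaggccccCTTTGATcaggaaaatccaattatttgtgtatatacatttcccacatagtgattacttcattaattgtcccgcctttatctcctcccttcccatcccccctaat
Searched on both strands, these letters occurred in the 250 bases before a start of 3.72% of the 27025 genes in the table and 2.75% of the 11872 tested genes matched to it. Of the 57 genes called higher, 48 matched and 3 held them (Cpn1, Emb and Sp5). Of the 107 called lower, 75 matched and 1 held them (Cdk5r2). Among the 9 matched genes of the Wnt target list, only Sp5 held them. A match is a run of letters in this window and says nothing of binding.

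**Figure D2:**
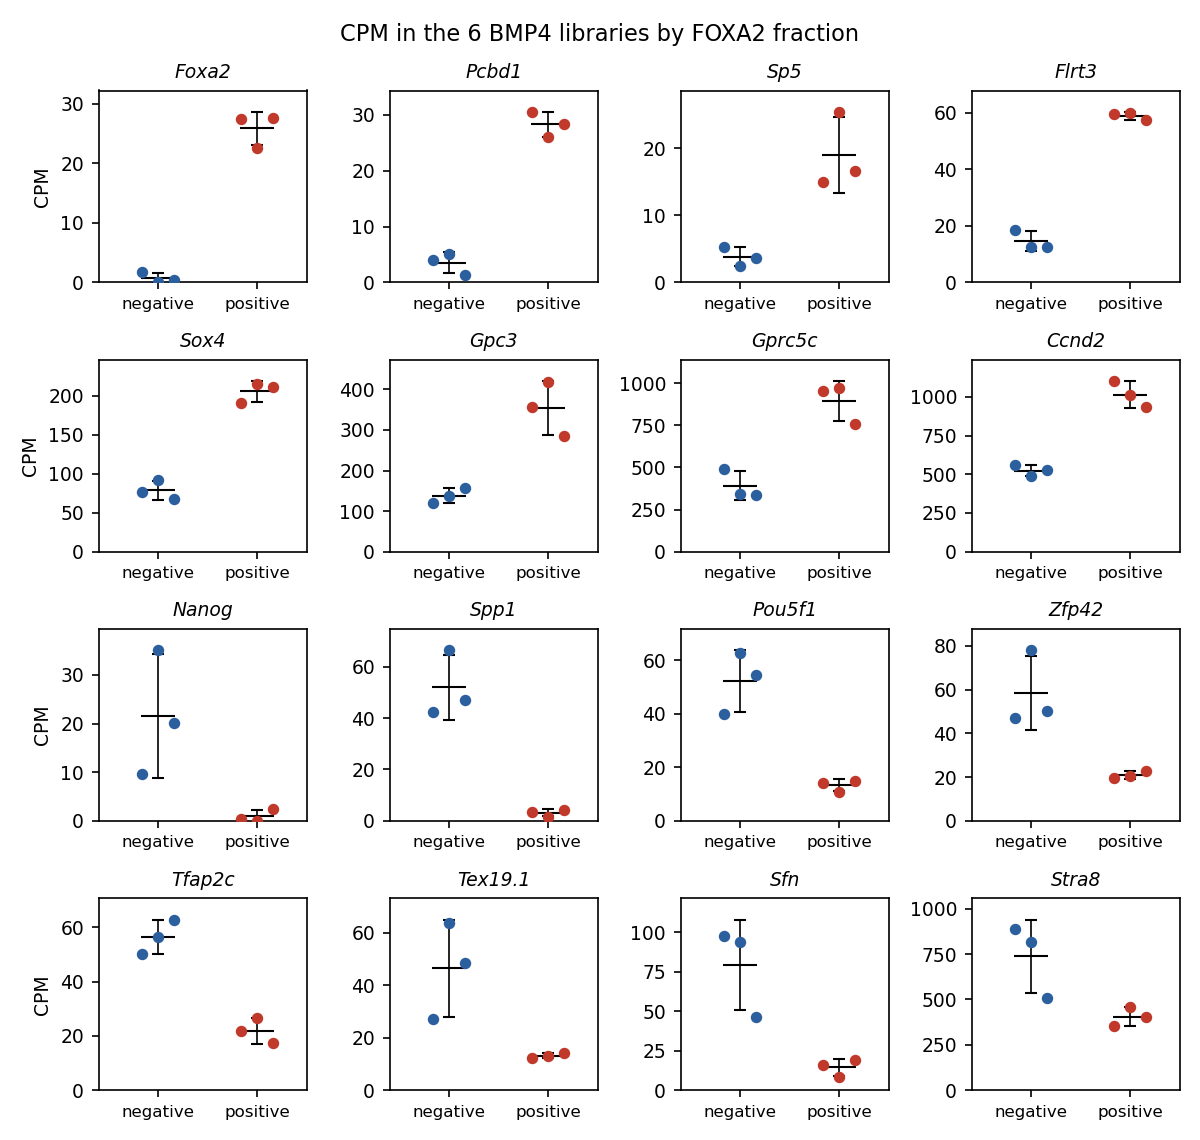
Each panel gives the CPM (vertical axis, from 0) of 1 gene in the 3 FOXA2-negative (blue) and 3 FOXA2-positive (red) BMP4 libraries, with the mean as a line and the SD as bars. All 16 genes were called, and no called gene overlapped between the fractions. The first 8 genes are higher in FOXA2-positive cells, as Pcbd1 at 26.1 to 30.5 against 1.41 to 5.16 CPM, and the last 8 are lower, as Spp1 at 1.57 to 4.17 against 42.5 to 66.3 CPM.

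Further genes that rose lost their call when a library was left out. Lrp8, a receptor of reelin, was at 4.19, 0.86 and 2.92 CPM in FOXA2-negative and 17.6, 24.9 and 9.99 CPM in FOXA2-positive libraries (2.72 ± 0.58, adjusted p = 0.0169). Cpn1, the catalytic subunit of carboxypeptidase N, was at 2.56, 9.78 and 11.3 against 40.4, 37.6 and 40.2 CPM (2.31 ± 0.50, adjusted p = 0.0232). Neither gene overlapped between the fractions, which holds for every called gene, and Cpn1 varied more among FOXA2-negative than among FOXA2-positive libraries. Cytoskeletal genes among them were Arhgef28, an exchange factor for small GTPases (2.30 ± 0.50), Ablim1, an actin-binding LIM protein (2.20 ± 0.53), and Krt19, a simple epithelial keratin (1.62 ± 0.35). Timp2, an inhibitor of matrix metalloproteinases (1.66 ± 0.39), Tspan12, a tetraspanin of Norrin signalling (1.63 ± 0.39), and Dact2, which binds dishevelled (1.43 ± 0.28), rose as well. Ptn, the secreted growth factor pleiotrophin, rose from 28.2 ± 5.39 to 66.2 ± 3.25 CPM (1.23, adjusted p = 0.0169), and Gja1, the gap junction protein connexin 43, from 84.9 ± 37.0 to 182.4 ± 24.2 CPM (1.10, adjusted p = 0.033). Lrp8 lost its call without FOXA2-positive library 1 or 2 or FOXA2-negative library 2 or 3 (adjusted p up to 0.113), and Cpn1 without any library but FOXA2-negative library 3 (up to 0.0871). Arhgef28 lost it without FOXA2-negative library 1 or 2 or FOXA2-positive library 2 (up to 0.129), Ablim1 without any but FOXA2-negative library 3 (up to 0.2) and Krt19 without FOXA2-negative library 2 or 3 or FOXA2-positive library 3 (up to 0.173). Timp2 lost it without any but FOXA2-negative library 1 (up to 0.177), Tspan12 without any of the 6 (up to 0.188) and Dact2 without library 2 of either fraction (up to 0.0999). Ptn lost it without any but FOXA2-negative library 1 (up to 0.0881) and Gja1 without any but FOXA2-negative library 3 (up to 0.155). With BMP4 libraries alone, the calls of Lrp8 (adjusted p = 0.0563), Ablim1 (0.0517), Timp2 (0.12) and Gja1 (0.0918) were lost, and with the replicate block that of Timp2 (0.0519).

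Genes of the pluripotent state, which keeps stem cells able to form all embryonic lineages, fell in FOXA2-positive cells. Of 18 genes on the naive and core pluripotency list, all tested, 7 were called lower and none higher, against 0.601% and 0.32% of all tested genes. Of the 18, 14 had log2 fold changes below 0 (50% of all tested genes did) and the median was -1.44. Pou5f1, which encodes the core factor OCT4, stood at 39.9, 62.5 and 54.2 CPM in FOXA2-negative and 14.1, 10.8 and 15.03 CPM in FOXA2-positive libraries (-1.97 ± 0.29, adjusted p = 0.000671). Nanog, its homeobox partner, was at 9.66, 35.1 and 20.1 CPM in FOXA2-negative libraries, and at 0.472, 0 and 2.52 CPM in FOXA2-positive ones (-4.41 ± 0.87, adjusted p = 0.00929). Nanog varied more than 3-fold among FOXA2-negative libraries and was near 0 in every FOXA2-positive one. Zfp42, which encodes the naive marker REX1, was at 47.2, 78.0 and 50.3 against 19.5, 20.3 and 22.9 CPM (-1.49 ± 0.25, adjusted p = 0.00249). Utf1, a chromatin protein of stem cells, fell by 1.39 on the log2 scale, Dppa2, a chromatin factor of early development, by 1.68, Dppa5a, an RNA-binding protein, by 0.86, and Fgf4, the growth factor of pluripotent cells, by 3.72. Pou5f1 and Zfp42 kept their calls. The call of Nanog was lost without FOXA2-negative library 2 or FOXA2-positive library 1 (adjusted p up to 0.0793) and Utf1 without library 2 of either fraction (up to 0.134). Fgf4 and Dppa2 lost theirs without FOXA2-negative library 2 or any FOXA2-positive library (up to 0.0993 and 0.326), and Dppa5a without FOXA2-negative library 2 or 3 or FOXA2-positive library 1 or 2 (up to 0.135). The replicate block ended the calls of Utf1 (adjusted p = 0.098) and Dppa2 (0.13), and a fit of BMP4 libraries alone those of Dppa2 (0.131) and Dppa5a (0.0511).

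Not all members of the list shared this direction. Sall4 and Lin28a, both abundant, overlapped between the fractions (means of 2489 and 2134 CPM for Sall4 and of 2241 and 2662 CPM for Lin28a, FOXA2-negative first). Klf5 (25.5 to 34.6 against 36.7 to 45.6 CPM) and Tbx3 (97.9, 119.1 and 98.6 against 163.3, 220.4 and 125.5 CPM) lay higher in every FOXA2-positive library without passing the test (adjusted p = 0.435 and 0.175). Klf2 (25.1 to 69.4 against 0.733 to 14.3 CPM), Esrrb (4.42 to 10.3 against 0.189 to 2.62 CPM) and Tfcp2l1 (21.8 to 29.9 against 9.79 to 11.2 CPM) lay lower without overlap, again short of the threshold (adjusted p = 0.286, 0.379 and 0.13). In all, 10 members lay lower and 2 higher without overlap, where 7.31% and 7.51% of all tested genes did so. Summed over the list, the fractions were alike in range, at 4801 to 6718 CPM in FOXA2-negative and 4944 to 5954 CPM in FOXA2-positive libraries, since Sall4 and Lin28a made up most of the sum. Genes of the primed epiblast, the later pluripotent state, showed no call among 7 tested (median -0.19), and Otx2 had 0 counts in FOXA2-positive cells, at least 18.0-fold below the 1.77 CPM of FOXA2-negative cells.

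The Nanog promoter is shown because OCT4, whose gene Pou5f1 fell with Nanog, is known to bind it together with SOX2 at neighbouring octamer and SOX letters. The 250 bases before the start at chr6:122707239-122707488 (RefSeq, GRCm38.p6, plus strand) hold ATGCAAA on the minus strand and ACAATG on the plus strand, both in capitals and 1 base apart.
Nanog: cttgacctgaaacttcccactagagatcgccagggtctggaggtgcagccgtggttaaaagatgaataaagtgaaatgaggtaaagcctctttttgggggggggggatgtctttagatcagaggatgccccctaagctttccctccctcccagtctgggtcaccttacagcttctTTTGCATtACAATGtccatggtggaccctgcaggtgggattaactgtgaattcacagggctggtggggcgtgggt
Searched on both strands in this order and spacing, the pair occurred before a start of 1 gene in the table, Nanog. The order and spacing were copied from the Nanog stretch itself, so this match was fixed in advance. That no other gene held so long a run of letters says nothing of binding. The octamer letters ATGCAAA alone, on either strand, occurred in 3.78% of the tested genes. They were found in 5 of the 75 matched genes called lower (Chchd10, Elf3, Nanog, Spp1 and Zfp42) and in 0 of the 48 called higher. Sox2 itself was at 63.5, 55.3 and 45.7 CPM in FOXA2-negative and 57.1, 65.6 and 62.4 CPM in FOXA2-positive libraries (0.17 ± 0.20, adjusted p = 0.846).

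Genes of the 2-cell-like state, a rare and transient condition of stem cells in which genes of the 2-cell embryo such as the Zscan4 cluster are switched on, were nearly confined to FOXA2-negative libraries. The list summed to 175.8, 368.7 and 218.9 CPM in FOXA2-negative libraries and to 1.13, 4.40 and 0.388 CPM in FOXA2-positive ones. Of 16 listed genes 13 were tested, and 4 of them (Zscan4c, Zscan4d, Zscan4e and Usp17lc) were called lower, as were 0.601% of all tested genes. All 13 tested had log2 fold changes below 0 (50% of all tested genes did), and 11 lay lower without overlap (7.31% of all tested genes did). Of the 13, 9 had 0 counts in every FOXA2-positive library, so that fitted fold changes depend on the prior count. The median of -8.27 became -5.74 with such genes set at their bound. Zscan4c (18.8, 42.0 and 29.0 CPM in FOXA2-negative libraries) was at least 304-fold lower taking 3 counts over the FOXA2-positive group as the floor, Zscan4e (33.98, 37.4 and 30.1 CPM) at least 343-fold and Usp17lc (15.7, 41.4 and 12.2 CPM) at least 234-fold. Zscan4d was at 19.8, 65.9 and 79.1 against 0, 0.524 and 0 CPM (adjusted p = 0.0105). Zscan4a, the member with the highest mean in FOXA2-negative cells after Zscan4d (32.2, 77.6 and 37.4 CPM), had 0 counts in FOXA2-positive cells, at least 498-fold lower, and was not called (adjusted p = 0.254). Zscan4c kept its call. Zscan4e lost it without any 1 of the 6 libraries (adjusted p up to 0.112), Usp17lc without FOXA2-negative library 1 or any FOXA2-positive library (up to 0.111) and Zscan4d without FOXA2-positive library 1 or 3 (up to 0.0605).

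Zscan4 and Usp17l genes are families of near-identical copies, so how the authors' counting split their reads is uncertain. The stretches before the starts of Zscan4c (GRCm38.p6, chr7:11005595-11005744, plus strand) and Zscan4d (chr7:11166160-11166309, minus strand) are shown as an example of how alike these copies are upstream. The bases that differ are in capitals.
Zscan4c: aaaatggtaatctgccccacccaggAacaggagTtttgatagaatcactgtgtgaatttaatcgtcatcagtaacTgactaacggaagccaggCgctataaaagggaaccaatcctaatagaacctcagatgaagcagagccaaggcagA
Zscan4d: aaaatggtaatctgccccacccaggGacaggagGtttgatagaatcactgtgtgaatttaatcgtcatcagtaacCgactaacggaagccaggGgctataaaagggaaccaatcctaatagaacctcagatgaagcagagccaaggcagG
Over these 150 bases the copies differed at 5 and were 96.7% identical. They lie before the starts, and how alike the counted exons are was not tested.

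Among germline genes, several of which are active in stem cells before the germ line forms, 3 fell. All 20 listed were tested, 3 were called lower (0.601% of all genes were), 18 had log2 fold changes below 0 (50% of all genes did) and the median was -0.92. The list summed to 728 to 1086 CPM in FOXA2-negative and 458 to 577 CPM in FOXA2-positive libraries. Stra8, which licenses meiosis in response to retinoic acid, made up most of this sum at 889.4, 817.4 and 510.5 against 352.6, 456.8 and 404.2 CPM (-0.87 ± 0.16, adjusted p = 0.00592). Tex19.1, which restrains retrotransposons, fell from 27.1, 64.0 and 48.7 to 12.3, 13.1 and 14.2 CPM (-1.82 ± 0.33, adjusted p = 0.00532), and Tdrd12, a piRNA pathway protein, from 26.7 ± 7.56 to 8.79 ± 2.90 CPM (-1.60, adjusted p = 0.0271). The tightness of Tex19.1 in FOXA2-positive libraries set it apart from its spread in the others. Dppa3, also called Stella and a marker of both naive cells and germ cells, was at 15.2, 50.6 and 23.8 against 5.20, 2.09 and 1.07 CPM, without overlap, and was not called (-3.41 ± 1.00, adjusted p = 0.166). The germ cell genes Ddx4 and Dazl, under 12 CPM in all libraries, overlapped. Tex19.1 lost its call without FOXA2-negative library 2 (adjusted p = 0.0568), Stra8 without that library or FOXA2-positive library 1 (up to 0.0622) and Tdrd12 without that library or any FOXA2-positive library (up to 0.184). With BMP4 libraries alone Stra8 (0.0517) and Tdrd12 (0.0743) lost theirs.

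The other genes that fell furthest belong to no single group. Mylpf, the regulatory light chain of fast skeletal myosin, fell from 192.1, 258.2 and 98.0 to 23.3, 23.7 and 44.3 CPM (-2.58 ± 0.29, adjusted p = 6.65e-05). Spp1, the secreted matrix protein osteopontin, was at 42.5, 66.3 and 47.2 against 3.59, 1.57 and 4.17 CPM (-4.05 ± 0.56, adjusted p = 0.000524). Plekhg1, an exchange factor for small GTPases, was at 32.6, 27.3 and 22.2 against 2.55, 5.03 and 5.14 CPM (-2.69 ± 0.37, adjusted p = 0.000359). In all 3 genes the lowest FOXA2-negative library exceeded the highest FOXA2-positive one by more than 2-fold. Dusp27, an atypical phosphatase family member of muscle (10.5 ± 3.93 to 0.311 ± 0.459 CPM), and Nlrp9b, of the NLR family (15.96 ± 4.96 to 1.37 ± 0.387 CPM), fell too. All 5 kept their calls. The water and glycerol channel gene Aqp3 fell from 98.1, 183.8 and 151.6 to 5.20, 7.02 and 9.60 CPM (-4.31 ± 0.69, adjusted p = 0.00999), Aoah, an enzyme that inactivates lipopolysaccharide, by 3.80 on the log2 scale, Zfp981, a zinc finger gene, by 3.23 and Rpl39l, a ribosomal protein paralogue of the testis, by 2.54. Aqp3 lost its call without FOXA2-positive library 1 or 2 (adjusted p up to 0.0644), Aoah without FOXA2-negative library 2 or FOXA2-positive library 3 (up to 0.0777), Zfp981 without any FOXA2-positive library (up to 0.0695) and Rpl39l without FOXA2-positive library 1 or FOXA2-negative library 2 (up to 0.0622).

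Some abundant genes with smaller changes fell and kept their calls, and were chosen after their values were seen. Sfn, which encodes the epithelial protein 14-3-3 sigma, stood at 97.9, 94.2 and 46.6 against 15.9, 8.59 and 18.8 CPM (-2.46 ± 0.33, adjusted p = 0.00045). Elf3, an ETS factor of epithelia, was at 56.5, 105.8 and 91.8 against 26.1, 30.2 and 22.6 CPM (-1.69 ± 0.28, adjusted p = 0.00193). Genes of redox and mitochondrial function were among them. Gpx4, which reduces lipid peroxides, fell from 376.9, 664.0 and 558.6 to 208.2, 241.5 and 221.9 CPM (-1.25 ± 0.19, adjusted p = 0.000734). Its call comes with that of a processed pseudogene, and the part that reads shared with it play was not tested. Nqo1, a quinone reductase, fell from 110.8 ± 25.8 to 40.7 ± 6.92 CPM (-1.44), Chchd10, a protein of the mitochondrial intermembrane space, from 351.9 ± 141.9 to 129.3 ± 14.02 CPM (-1.44), and Folr1, a folate receptor, from 240.2 ± 14.7 to 117.4 ± 5.13 CPM (-1.03).

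Among lists that mark embryonic cell identities, single genes rather than whole lists were called. Of 12 endoderm genes tested, 7 had log2 fold changes above 0 and 5 below (48.7% and 50% of all tested genes did). Pcbd1 was the 1 called, higher, as were 0.32% of all tested genes, and the median was 1.03. Sox17, the endoderm factor, was at 3.37, 1.94 and 13.4 CPM in FOXA2-negative and 33.4, 10.9 and 24.6 CPM in FOXA2-positive libraries, which overlap (1.87 ± 0.53, adjusted p = 0.104). Gata6 ranged from 2.90 to 14.5 against 9.99 to 41.9 CPM (adjusted p = 0.536), and Afp had 0 counts in both fractions. The endoderm list summed to 25.4 to 39.9 CPM in FOXA2-negative and 85.1 to 145.2 CPM in FOXA2-positive libraries. Pcbd1 is part of both sums, and the list was chosen with earlier results of these data known. Markers of notochord, another FOXA2-positive tissue, were scarce: of 7 listed 4 were tested and none called, T (brachyury) stayed under 0.5 CPM in all libraries, and Noto had 0 counts in both fractions. Of the 4 tested, 1 had a log2 fold change above 0 and 3 below, with a median of -0.47. Their sum was 7.20 to 17.8 against 18.0 to 25.5 CPM, most of it in the FOXA2-positive libraries from the BMP antagonist gene Nog.

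Neural genes gave 1 call. Of 13 neural progenitor genes tested, 11 had log2 fold changes above 0 (48.7% of all tested genes did). Sox4 was called higher, as were 0.32% of all tested genes, and the median was 0.40. The list summed to 606.5 to 679.4 CPM in FOXA2-negative and 819.0 to 1092 CPM in FOXA2-positive libraries. Cdh2, the N-cadherin of neural epithelium, was at 15.2, 5.70 and 11.7 against 23.5, 24.0 and 21.9 CPM, without overlap (1.09 ± 0.37, adjusted p = 0.213), and so was Sox1 (4.06 to 6.77 against 8.22 to 12.1 CPM, adjusted p = 0.448). Pax6 and Irx3 overlapped, with log2 fold changes of 0.04 and -0.04. Genes of neurons and their precursors pointed the other way in 10 of 11 cases with no call (median -0.74), where 50% of all tested genes were below 0. Tubb3, for example, was at 24.6 to 33.0 against 17.2 to 21.4 CPM (adjusted p = 0.571). Dorsal neural tube and neural crest genes showed no call among 15 tested (median 0.44). Msx1, a dorsal homeobox gene and BMP target, was abundant in both fractions at 604.2, 410.1 and 930.6 against 1042.5, 781.3 and 891.2 CPM (0.48 ± 0.30, adjusted p = 0.594). Pax3 was at 7.85 to 18.1 against 22.8 to 33.1 CPM, without overlap and without a call (adjusted p = 0.278).

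Surface ectoderm genes split. Of 15 tested, Tfap2c was called lower and Krt19 higher, as were 0.601% and 0.32% of all tested genes. Among the 15, 10 were below 0 and 4 above (50% and 48.7% of all tested genes were), and the median was -0.54. Tfap2c, an AP-2 factor of surface ectoderm and of germ cells, was at 50.4, 56.6 and 62.9 CPM in FOXA2-negative and 21.7, 26.5 and 17.3 CPM in FOXA2-positive libraries (-1.38 ± 0.25, adjusted p = 0.00406), and kept its call. The keratin gene Krt19 went the opposite way, from 24.4, 15.5 and 16.7 to 46.4, 43.6 and 84.5 CPM, its call being lost without FOXA2-negative library 2 or 3 or FOXA2-positive library 3 (adjusted p up to 0.173). Tfap2a (155.6 to 173.5 against 59.5 to 128.9 CPM), Dlx3 (24.8 to 30.4 against 8.24 to 12.7 CPM) and Cdh1, the E-cadherin gene (91.1 to 104.9 against 48.8 to 77.5 CPM), lay lower without overlap and were not called (adjusted p = 0.406, 0.0736 and 0.142). Gata3 (31.3 to 52.4 against 66.8 to 71.4 CPM) and Krt18 (149.6 to 175.9 against 247.9 to 256.5 CPM) lay higher without overlap and were not called either (adjusted p = 0.489 and 0.107). The epidermal gene Trp63 had 0 counts in the 6 libraries. Hox genes of paralogue groups 1 to 5, which mark hindbrain and anterior spinal levels, had 1 call, higher, among 15 tested, with a median of 0.55. Of the 15, 12 were above 0 and 7 lay higher without overlap, where 48.7% and 7.51% of all tested genes did so. Hoxb1, the most abundant of the uncalled ones, was at 144.4 to 160.7 against 199.6 to 209.6 CPM (adjusted p = 0.471). The more posterior groups 6 to 13 had no call among 14 tested (median -0.07).

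**Figure D3:**
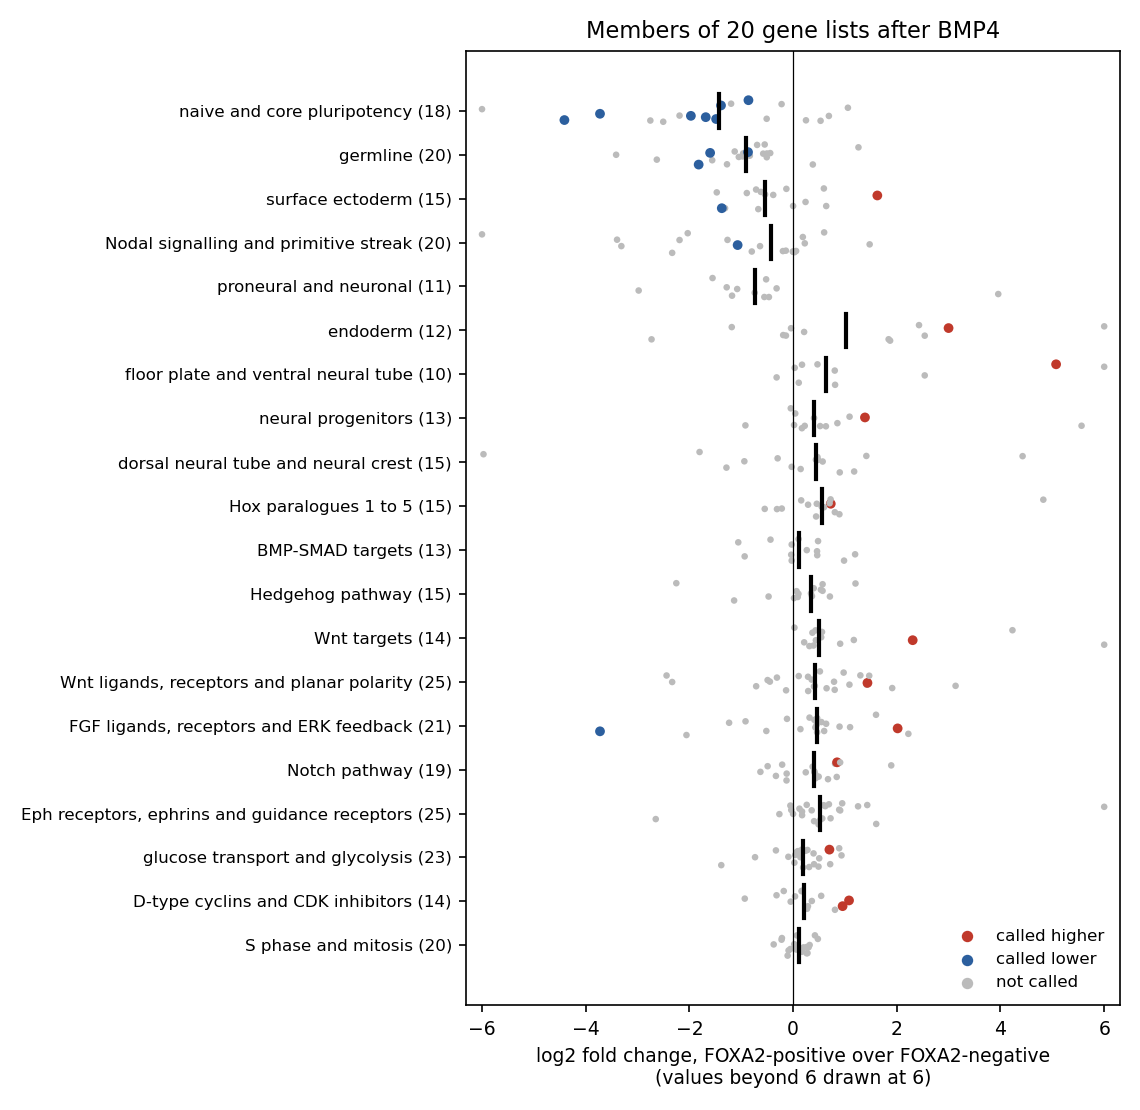
Each row is 1 of 20 gene lists, with the number of members tested in brackets, and each point a member placed by its log2 fold change, FOXA2-positive over FOXA2-negative (horizontal axis, values beyond 6 drawn at 6). Black bars are medians, from -1.44 for pluripotency to 1.03 for endoderm, and the called members (red and blue) are few in every list, at most 7, in pluripotency.

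Signalling lists were probed for traces of BMP and of the pathways it meets in the neural tube. Of 13 targets of BMP and SMAD none was called, 7 were above and 6 below 0, and the median was 0.11. Id1, whose protein blocks basic helix-loop-helix factors, was at 281.7, 243.1 and 243.7 against 237.1, 238.1 and 274.1 CPM (-0.04 ± 0.27, adjusted p = 0.999), and Id2 at 120.9 to 148.5 against 123.2 to 143.1 CPM. Id3 lay higher without overlap (431.1, 272.9 and 423.6 against 549.0, 446.8 and 557.1 CPM) and missed the threshold (0.46 ± 0.17, adjusted p = 0.29). Nog, which encodes the BMP antagonist noggin, was at 6.40, 6.99 and 11.2 against 22.7, 17.8 and 15.996 CPM, again without overlap (1.20 ± 0.90, adjusted p = 0.694). Ligands, receptors, SMADs and antagonists of BMP had no call among 18 tested (median 0.15), the receptor gene Bmpr1a standing at 32.0 to 52.4 against 30.6 to 46.5 CPM. The Hedgehog pathway had no call among 15 (median 0.34). Its direct targets Ptch1 (97.4, 68.3 and 37.0 against 71.1, 122.8 and 106.3 CPM) and Gli1 (12.5 to 24.7 against 15.5 to 27.3 CPM) overlapped. Smo, the signal transducer, lay higher without overlap (20.1 to 35.1 against 38.2 to 48.6 CPM, adjusted p = 0.404), and Hhip, the Hedgehog-binding inhibitor, lower (9.19, 3.23 and 12.7 against 2.55, 0.943 and 1.75 CPM, adjusted p = 0.0728).

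Wnt target genes all pointed one way. The log2 fold changes of the 14 tested were above 0, against 48.7% of all tested genes, and the median was 0.49. Of the 14, 7 lay higher without overlap (7.51% of all tested genes did) and Sp5 alone was called. The list summed to 504.6 to 776.8 CPM in FOXA2-negative and 873.7 to 1073 CPM in FOXA2-positive libraries. Axin2, a feedback inhibitor and standard readout, was at 28.6, 31.6 and 31.5 against 41.8, 50.2 and 43.1 CPM (0.56 ± 0.30, adjusted p = 0.506). Dkk1, a secreted inhibitor, was at 13.5, 12.9 and 16.98 against 32.4, 31.5 and 33.8 CPM (1.17 ± 0.77, adjusted p = 0.62). Sp8, a relative of Sp5, was at 91.9, 88.1 and 142.7 against 174.9, 247.0 and 184.0 CPM (0.91 ± 0.38, adjusted p = 0.413). All 3 separated the fractions without passing the test. Among 25 ligands, receptors and planar polarity genes tested, Dact2 was called (18.4 ± 3.11 to 49.6 ± 17.1 CPM, lost without library 2 of either fraction, adjusted p up to 0.0999), 18 were above 0 and the median was 0.42. Prickle1 (3.33 to 13.8 against 23.5 to 31.5 CPM) and the Wnt antagonist gene Sfrp1 (19.03 to 31.5 against 45.0 to 56.5 CPM) lay higher without overlap (adjusted p = 0.0733 and 0.139).

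FGF genes were split between Flrt3, which rose, and Fgf4, which fell from 16.8, 25.7 and 24.0 to 0.283, 2.20 and 2.52 CPM. The other 19 tested were not called, and the median was 0.45. Fgf4 lost its call without FOXA2-negative library 2 or any FOXA2-positive library (adjusted p up to 0.0993). Fgf3 was at 7.91, 3.76 and 12.7 against 29.1, 22.4 and 22.7 CPM (1.60 ± 0.45, adjusted p = 0.0988) and the feedback gene Spry2 at 107.5, 215.2 and 159.4 against 235.2, 297.2 and 217.6 CPM (adjusted p = 0.542). Both lay higher without overlap. Nodal and primitive streak genes gave 1 call in 20, Gdf3, a TGF-beta family ligand that acts with Nodal, which fell from 83.8, 101.5 and 86.5 to 59.0, 42.8 and 27.5 CPM (-1.07 ± 0.23, adjusted p = 0.0165). Gdf3 lost its call without library 2 of either fraction or FOXA2-positive library 3 (up to 0.109). The Nodal inhibitors Lefty1 (6.98 to 11.98 against 0 to 2.71 CPM, adjusted p = 0.503) and Lefty2 (1.98 to 11.7 CPM against 0 counts, at least 64.5-fold lower, adjusted p = 0.0942) were not called. In the retinoic acid list, 2 of 16 were called lower (0.601% of all tested genes were), Stra8 and the receptor gene Rarg. Rarg went from 66.2, 105.4 and 65.4 to 31.6, 33.8 and 27.5 CPM (-1.35 ± 0.32, adjusted p = 0.0365). The calls were lost without FOXA2-positive library 1 or FOXA2-negative library 2 for Stra8 (up to 0.0622) and, for Rarg, without these or FOXA2-positive library 2 or 3 (up to 0.235). Crabp1, which binds retinoic acid in the cytoplasm, was at 196.3, 100.2 and 219.6 against 292.3, 391.7 and 461.1 CPM, without overlap or call (adjusted p = 0.379), and Cyp26a1, which breaks it down, overlapped (32.6 median against 31.5 CPM). Of the Notch pathway's 19 genes 1 was called: Hes1, its main effector, rose from 188.8, 157.8 and 99.4 to 294.1, 213.8 and 294.7 CPM (0.85 ± 0.21, adjusted p = 0.0433). That call was lost without FOXA2-positive library 1 or 3 or FOXA2-negative library 2 or 3 (up to 0.195), with RLE scaling (0.0518) and with BMP4 libraries alone (0.106). With BMP4 libraries alone Stra8 (0.0517) and Gdf3 (0.0713) also lost theirs.

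Guidance genes gave no call, and adhesion and matrix genes a few. None of 25 Eph receptors, ephrins and guidance receptors was called, while 20 were above 0 (48.7% of all tested genes were) and the median was 0.52. Without overlap, 10 lay higher and none lower, where 7.51% and 7.31% of all tested genes did so. Nrp1, a receptor of semaphorins and VEGF, was at 13.8, 3.55 and 6.51 against 23.9, 23.9 and 24.7 CPM (1.60 ± 0.45, adjusted p = 0.0992), and Epha4 at 14.8, 21.4 and 17.2 against 38.5, 30.6 and 31.0 CPM (0.91 ± 0.31, adjusted p = 0.227). Among 21 basement membrane genes, 12 above and 9 below 0 (median 0.03), Lamb1, a laminin chain, rose from 88.8, 79.5 and 54.8 to 140.4, 159.4 and 121.3 CPM (0.92 ± 0.20, adjusted p = 0.0168) and Spp1 fell. Lamb1 lost its call without FOXA2-positive library 1 or 2 or FOXA2-negative library 2 or 3 (up to 0.115) and with BMP4 libraries alone (0.0517). The collagen IV genes Col4a1 (2.55 to 7.85 against 11.6 to 27.4 CPM, adjusted p = 0.11) and Col4a2 (7.26 to 12.2 against 21.2 to 23.3 CPM, adjusted p = 0.456) lay higher without overlap. Of 10 glypicans and syndecans Gpc3 alone was called, and Sdc4, the most abundant, overlapped (449.0 to 913.9 against 476.2 to 499.4 CPM). Of 22 cadherin and junction genes only Flrt3 was called, 13 were below 0 and the median was -0.29. Epcam, at 166.6 to 184.7 against 125.5 to 151.1 CPM, and Cldn4, at 45.7 to 72.3 against 15.7 to 33.2 CPM, lay lower without overlap (adjusted p = 0.286 and 0.0834).

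Markers of other cells that a stem cell culture could hold were low and gave no call. Trophectoderm genes summed to 65.5 to 107.3 CPM in FOXA2-negative and 37.7 to 74.5 CPM in FOXA2-positive libraries (6 of 8 tested), which overlap. Gcm1, a trophoblast gene, was at 1.98, 9.25 and 3.11 CPM in FOXA2-negative cells and had 0 counts in FOXA2-positive cells, at least 48.5-fold lower, and was not called (adjusted p = 0.124). Cdx2 overlapped at 10.3 to 60.3 against 30.1 to 47.2 CPM. Endothelial genes summed to 8.73 to 26.9 against 3.30 to 8.60 CPM (4 of 8 tested), with Cdh5 and Emcn at 0 counts in both fractions. Pecam1, also expressed by stem cells, made up most of the sum in FOXA2-negative libraries, at 8.49, 20.2 and 22.3 against 1.61, 3.46 and 2.42 CPM, without overlap or call (adjusted p = 0.0588). Fibroblast or feeder genes summed to 24.3 to 32.6 against 30.3 to 35.5 CPM (6 of 8 tested), with Col3a1 and Lum at 0 counts in both.

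The difference between fractions was compared with that in RA and LDN by an interaction term, to ask where BMP4 changed it. Of the 57 genes called higher after BMP4, 16 were also called higher in both other treatments, 13 in RA only, 5 in LDN only and 23 in neither, where 0.371% of genes in RA and 0.286% in LDN were called higher (1.19% and 0.994% in either direction). Of the 107 called lower, 42 were called in both, 30 in RA only, 7 in LDN only and 28 in neither (0.82% and 0.707% of all genes). All 107 pointed the same way in RA and 104 in LDN, as did 55 and 53 of the 57. The 51 genes called after BMP4 alone included Pcbd1 (1.43 in RA and 0.56 in LDN), Lrp8 (1.17 and -0.79), Krt19 (0.63 and 0.36), Plekhg1 (-1.24 and -0.71), Lamb1, Rarg and Gdf3. None of the 51 was shown to differ from the other treatments: their lowest adjusted p for the interaction was 0.867 with RA and 0.327 with LDN.

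Over all genes, 1 (0.00561%) differed between BMP4 and RA in its difference between fractions, and 6 (0.0337%) between BMP4 and LDN. At an unadjusted p under 0.05 there were 742 (4.17%) and 1100 (6.18%). In all 6 genes of the LDN comparison, of which Msx2, Tbx3, Tfap2c, Krt18 and Urgcp are described here, the log2 fold change was higher after BMP4 than after LDN. Msx2, a homeobox gene and BMP target, was at 23.4, 26.9 and 29.4 CPM in FOXA2-negative and at 26.6, 27.4 and 24.1 CPM in FOXA2-positive cells after BMP4, with no difference beyond the spread (-0.03 ± 0.40, adjusted p of 1). After LDN it was at 3.46, 3.98 and 3.24 CPM in FOXA2-negative cells and had no count in either FOXA2-positive library, a drop of at least 22.4-fold. Tbx3, which encodes a T-box factor of the naive state and a BMP target, was at 97.9 to 119.1 against 125.5 to 220.4 CPM after BMP4 (0.69 ± 0.22, adjusted p = 0.175). After LDN it was at 11.96 to 19.7 against 4.45 and 5.02 CPM (-1.74), so that the difference of the differences was 2.43 ± 0.36 (adjusted p = 0.00438). Tfap2c was lower in FOXA2-positive cells after both, by 1.38 after BMP4 and 3.66 after LDN on the log2 scale (difference 2.28 ± 0.38, adjusted p = 0.013). Of the 6, it was the 1 gene also called within BMP4.

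Krt18 and Urgcp of the LDN comparison and the gene of the RA comparison were called within other treatments alone. Krt18, a simple epithelial keratin, had log2 fold changes of 0.59 after BMP4 and -0.83 after LDN (difference 1.42 ± 0.26, adjusted p = 0.0324), and Urgcp had -0.85 and -5.58 (4.73 ± 0.89, adjusted p = 0.049). In Krt18 the fractions did not overlap in either treatment and stood in opposite orders, at 149.6 to 175.9 against 247.9 to 256.5 CPM after BMP4 and 219.3 to 285.6 against 136.2 and 137.0 CPM after LDN. Gm17251, a predicted gene, was at 9.66, 8.82 and 16.4 against 7.09, 6.70 and 6.20 CPM after BMP4 (-0.81), and at 102.4, 170.2 and 226.1 against 5.20, 6.10 and 6.04 CPM in RA (-4.84). The levels in FOXA2-positive cells were thus alike in both treatments, and those in FOXA2-negative cells were not. The difference of the differences was 4.04 ± 0.54 (adjusted p = 0.00133), and it stayed between 3.74 and 4.37 with each BMP4 or RA library left out and under each other setting. Msx2 lost the call without LDN FOXA2-positive library 2 (adjusted p = 0.0721), and Tbx3 kept it throughout. Tfap2c lost it without BMP4 FOXA2-negative library 1 or 2, BMP4 FOXA2-positive library 2, LDN FOXA2-positive library 2, or library 3 of either LDN fraction (adjusted p up to 0.136). Krt18 lost it without any BMP4 library, LDN FOXA2-positive library 2, or library 3 of either LDN fraction (up to 0.155). The value of Urgcp, which stood at 0.379 and 0 CPM in the LDN FOXA2-positive libraries, moved to 8.81 without LDN FOXA2-positive library 2 and to 3.88 without library 3. Urgcp lost the call with RLE scaling, with the replicate block, without any BMP4 library, and without LDN FOXA2-negative library 1 or library 3 of either LDN fraction (up to 0.259). Leaving out an LDN FOXA2-positive library leaves 1 in that group, whose spread is then borrowed from the remaining groups.

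**Figure D4:**
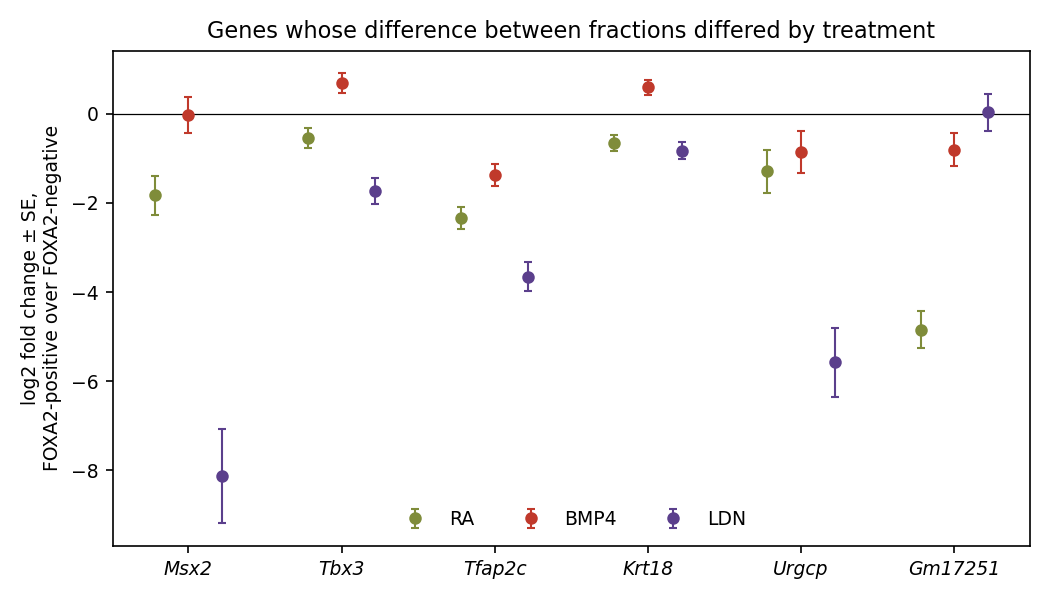
Points give the log2 fold change, FOXA2-positive over FOXA2-negative, of 6 genes with a called interaction, in RA, BMP4 and LDN libraries, and bars are ± 1 SE of the edgeR estimate. For the first 5 genes the LDN point lies below the BMP4 point, as for Tbx3 at -1.74 against 0.69; the LDN value of Msx2 rests on 0 counts in FOXA2-positive cells and depends on the prior count.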

How the data were processed

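Per the labels' protocols, RNA was made into libraries with SMART-Seq v2. The authors deposited unnormalised read counts by Ensembl gene, 1 table a library. Tools in the submitters' processing notes are HTSeq 0.11.2, cutadapt 1.18, UMI-tools 1.0.0 and DESeq2 1.26.0, with the build mm10. Aligner, annotation and strand setting: not given in the sources used here. Reads of overlapping antisense genes may therefore be mixed. Beside 49671 genes, the tables hold 5 summary lines. These took 49.3% to 54.0% of the BMP4 libraries' reads and stayed out of sizes and tests.

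Groups came from titles. No label states separate cultures. The p-values thus reflect the spread among these libraries alone, which may be technical. In R 4.3.3 with edgeR 4.0.16, filterByExpr (minimum count 10, total 15) kept 17813 genes. 1 robust quasi-likelihood model with TMM scaling was fitted to all 17 libraries and 6 groups (11 residual degrees of freedom, common biological coefficient of variation 0.632), so that groups share the spread. Adjusted p-values are from edgeR's quasi-likelihood test with Benjamini-Hochberg adjustment over all genes, at 0.05. SE is the log2 fold change over the square root of F. Alternatives were RLE scaling, DESeq2 1.42.0, no filter, a filter of 5 CPM in 2 libraries, the replicate block, BMP4 libraries alone, no genes of chromosomes 6, 8 and Y, and each library left out. The edgeR fit was tested on simulated data. Symbols and coordinates are from GENCODE M21 (GRCm38), and promoters from RefSeq.

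The 36 gene lists (574 genes, 521 tested) and the comparisons were chosen with earlier results of these data known. Named genes were up to 15 per direction with the largest called change, at least 5 CPM, no overlap and a full name, list members, up to 10 genes per interaction, and 10 chosen after their values were seen (Gpx4, Sfn, Elf3, Chchd10, Folr1, Nqo1, Gprc5c, Soat1, Ptn and Gja1). Some genes, a called Hox gene among them, enter the counts only and are not reported here.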

Additional observations from a re-analysis of the deposited data

Results flagged for a closer look

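A difference between treatments, by the test of the interaction itself, marked the 6 genes given here for a closer look. Against RA this was Gm17251, whose log2 fold change between fractions was higher by 4.04 after BMP4. Against LDN the log2 fold change after BMP4 was higher by 8.10 for Msx2, 2.43 for Tbx3, 2.28 for Tfap2c, 1.42 for Krt18 and 4.73 for Urgcp. The Msx2 value rests on 0 counts in the LDN FOXA2-positive libraries and depends on the prior count. That of Urgcp, near 0 in the same libraries, ranged from 3.88 to 8.81 with 1 library left out. Groups of 3 libraries were not tested for outlying samples.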

How the results depend on the processing

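The count of 164 genes became 420 with DESeq2 (all 164 among them), 411 with no filter on low counts and 282 with the replicate number as a block (137 higher and 145 lower, 152 of them shared). It ranged from 61 to 165 with 1 BMP4 library left out. For BMP4 against RA the 1 gene became 5 with DESeq2, 31 with no filter and 2 with the replicate block, and ranged from 1 to 2 with 1 library left out. For BMP4 against LDN the 6 genes became 34 with DESeq2 and 54 with no filter, and ranged from 3 to 7 with 1 library left out. The cause of these moves was not tested, beyond the number of genes tested (26831 with no filter) and of samples. Replicate numbers were not taken to pair the BMP4 libraries. The deviations of same-numbered libraries from their group means correlated at 0.0508, 0.0793 and 0.0769 over 6669 genes, under the limit of 0.1 chosen here. Differently numbered ones correlated at -0.0608 to -0.0113, so that each library correlated best with its own number. This check cannot show that the libraries are unpaired, which is why the block is given as well. With BMP4 libraries alone 120 genes were called, and 112 with the block as well. Of the 63 named genes called, 27 kept their calls under each setting but 2, 36 lost them with at least 1 library left out and none changed direction. In these 2, Sp5 lost its call with BMP4 libraries alone and the block (adjusted p = 0.0709), and 5 of the 27 could not be tested without chromosomes 6, 8 and Y. The 27 include Gpx4, Sfn, Elf3, Chchd10, Folr1, Nqo1, Gprc5c and Soat1, which were chosen after their values were seen. The share that kept its call therefore holds for these named genes only. Of 484 list members not called, DESeq2 called 27, no filter 39 and the block 28. Common noise of 0.632 limits what 3 libraries can show at low counts.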

Other observations

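Cell cycle, metabolic and imprinted genes were also examined. Of 14 D-type cyclins, their kinases and inhibitors, Ccnd2 and Cdk6 were called higher and none lower (median 0.22). Of all tested genes, 0.32% were called higher and 0.601% lower. Ccnd2 lies on chromosome 6, whose genes as a whole were shifted up. Cdk6, the partner kinase of D cyclins, stood at 71.2, 114.5 and 81.9 CPM in FOXA2-negative and 187.5, 229.0 and 148.8 CPM in FOXA2-positive libraries (1.08 ± 0.25, edgeR adjusted p = 0.0291). The call was lost without library 1 of either fraction, FOXA2-positive library 2 or FOXA2-negative library 3 (adjusted p up to 0.187). Ccnd1 was at 239.2, 204.2 and 306.4 against 323.6, 446.6 and 321.7 CPM, without overlap (adjusted p = 0.109), while Ccnd3 and Cdk4 overlapped. None of 20 genes of S phase and mitosis was called (median 0.12), and Mki67, a general marker of cycling cells, was at 242.7 to 337.8 against 265.5 to 352.9 CPM. None of 21 genes of the MYC family, p53 response, apoptosis and polarity was called (median -0.01). Gadd45g, a growth arrest gene, was at 50.03, 40.1 and 38.9 against 18.8, 11.5 and 8.34 CPM (adjusted p = 0.0621) and Trp53 at 173.7 to 187.9 against 120.5 to 145.8 CPM (adjusted p = 0.213), both without overlap.

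Of 23 genes of glucose transport and glycolysis, 19 had log2 fold changes above 0 (48.7% of all tested genes did) and the median was 0.19. Only Tpi1 was called, higher, as were 0.32% of all tested genes. Tpi1 lies on chromosome 6, where 87.2% of genes with 20 CPM or more were above 0. The part of this in its rise was not tested. Tpi1, triosephosphate isomerase, rose from 170.1, 193.5 and 220.2 to 315.4, 291.8 and 341.6 CPM (0.70 ± 0.15, adjusted p = 0.0158). Hexokinase 2, Hk2, at 53.01 to 94.5 against 122.1 to 159.7 CPM, and the lactate carrier gene Slc16a1, at 68.1 to 107.7 against 130.1 to 165.6 CPM, lay higher without overlap and just missed the threshold (adjusted p = 0.0548 and 0.0591). Tpi1 lost its call without library 1 of either fraction, FOXA2-negative library 2 or FOXA2-positive library 3 (adjusted p up to 0.0826). Among 29 imprinted genes, Nnat, a small membrane protein of brain and fat, rose from 95.8, 77.7 and 89.3 to 187.2, 174.7 and 198.4 CPM (1.09 ± 0.20, adjusted p = 0.00592), and Grb10, an adaptor that restrains growth factor receptors, from 101.1 ± 14.4 to 174.2 ± 19.4 CPM (0.79, adjusted p = 0.0478). Nnat lost its call without FOXA2-negative library 2 (adjusted p = 0.0597), and Grb10 without any 1 of the 6 (up to 0.237) and with RLE scaling. Immediate early and heat shock genes, which respond to handling, gave no call among 12 tested (median -0.22) and summed to 1326 to 1609 CPM in FOXA2-negative and 1064 to 1165 CPM in FOXA2-positive libraries.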
